A study of Mus musculus with 6 samples.

Results

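The cartilage genes described here are 10 named genes, the transcription factors Sox9, Sox5 and Sox6, the proteoglycan gene Acan and its link protein Hapln1, the collagens Col2a1 and Col10a1, and Matn3, Chad and Cnmd. They were found by symbol among the 29616 genes of the deposited table, and all 10 were present. The RNA came from bone cells of C57BL/6 mice (C57BL/6J in the study's methods), described there as Osteocalcin-positive cells isolated from bones after the marrow was removed. The 3 control libraries (replicates 1 to 3) came from mice without dexamethasone. Saline was the control treatment in the study's dexamethasone model. The 3 dexamethasone libraries (replicates 1 to 3) came from mice that received this synthetic glucocorticoid in a daily dose of 0.08 µg/g over 4 weeks, from the age of 8 weeks. Control animals in the study were littermates, and cells were fixed and made permeable for antibody staining before sorting. All libraries shared the strain and the sort on Osteocalcin, and the number of mice behind each library is not given. P-values therefore measure only the spread between these libraries.

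Cartilage is built by chondrocytes, whose differentiation depends on Sox9 and on the closely related pair Sox5 and Sox6, which together switch on the genes of cartilage matrix. That matrix consists of type II collagen fibrils and of aggrecan, a large proteoglycan that binds hyaluronan with the help of a link protein and holds water through its chondroitin sulfate chains. Osteoblasts, the bone-forming cells, share a precursor with chondrocytes, and in the growth plate hypertrophic chondrocytes make type X collagen before bone replaces cartilage.

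With dexamethasone the cartilage genes went in both directions. Sox9, Sox5 and Col2a1 rose, Sox6 and Hapln1 fell, and Acan was close to the limit of detection in every library. Levels are given as normalized counts, the reads of a gene divided by 1 size factor per library. The tested genes were those that averaged 10 or more across all 6 libraries, and limma was applied to log2 values after adding 1, with Benjamini-Hochberg adjustment over all 17442 genes tested. A gene was called when its adjusted p-value was under 0.05 and its log2 fold change (dexamethasone against control, hereafter log2 change) was 1 or more in either direction. Of the 10 cartilage genes, 6 passed the filter and 5 of these were called, where 22.3% of all genes tested were called. The 3 that were higher stand against 11.7% of all genes tested, and the 2 that were lower against 10.6%. The groups did not overlap for these 5 genes, as was the case for 74.7% of all genes tested (38.4% higher and 36.4% lower). In such bulk libraries, fewer cells of a type and less RNA per cell cannot be told apart.

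**Figure D1:**
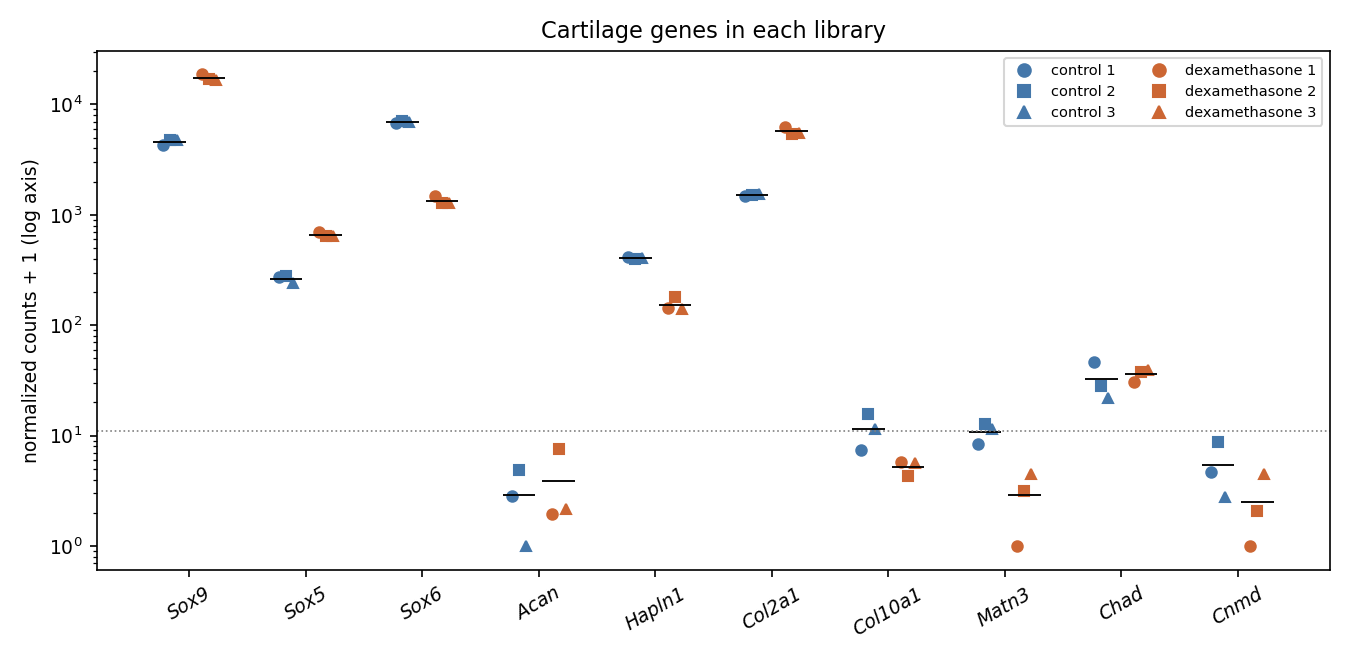
Normalized counts plus 1 (log axis) of the 10 cartilage genes in the 3 control (blue) and 3 dexamethasone (orange) libraries, with symbols for the replicates, bars at the group means and a dotted line at the filter, a mean of 10 normalized counts. Sox9, Sox5 and Col2a1 lay higher in all 3 dexamethasone libraries, Sox6 and Hapln1 lower, and Acan, Col10a1, Matn3 and Cnmd lay near or under the dotted line.

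Sox9, the transcription factor without which no cartilage forms, stood at 4326, 4762 and 4740.0 normalized counts in the controls (replicates 1 to 3, the order used throughout). With dexamethasone it stood at 18731, 16878 and 16608. Every dexamethasone library was far above every control library. The mean rose from 4609 ± 246 (SD, n = 3) to 17406 ± 1156 (SD, n = 3), 3.78-fold, with a log2 change of 1.92 (standard error 0.0444, limma adjusted p = 4.04e-22).

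Sox5 and Sox6 encode the SoxD factors that act beside Sox9 and can stand in for each other in cartilage, and here they moved apart. Sox5 had 273, 277 and 241 normalized counts in the control libraries and 693, 644 and 645 in the dexamethasone libraries. The rise was 2.51-fold, a log2 change of 1.33 (standard error 0.080, limma adjusted p = 1.54e-13). Sox6 had 6731, 7126 and 6937 normalized counts in the control libraries, and 1478, 1273 and 1291 in the dexamethasone libraries. The dexamethasone libraries were all lower, and the mean fell from 6932 ± 198 (SD, n = 3) to 1347 ± 113 (SD, n = 3), 5.15-fold, with a log2 change of -2.37 (standard error 0.0486, limma adjusted p = 3.29e-23). An antisense gene, Sox5os1, overlaps 9.25% of the exon bases of Sox5 in GENCODE M21, and since the strand setting of the count is not given in the sources used here, its reads cannot be told apart from those of Sox5. No other gene's exons overlap those of Sox9 or Sox6.

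The promoters of the SoxD pair are shown because both genes were measured well above the filter and changed in opposite directions. RefSeq (GRCm38.p6) gave a promoter for 8 of the 10 cartilage genes, with 13 entries in all, while Sox9 and Col2a1 had no entry. The 250 bases before the listed start are printed 5′ to 3′, and capitals mark the core of the motif bound by Sox proteins, ACAAT or its reverse complement ATTGT. The Sox5 window lies at chr6:143947107-143947356 and that of the most upstream of the 6 Sox6 entries at chr7:116038745-116038994, both on the minus strand.
Sox5: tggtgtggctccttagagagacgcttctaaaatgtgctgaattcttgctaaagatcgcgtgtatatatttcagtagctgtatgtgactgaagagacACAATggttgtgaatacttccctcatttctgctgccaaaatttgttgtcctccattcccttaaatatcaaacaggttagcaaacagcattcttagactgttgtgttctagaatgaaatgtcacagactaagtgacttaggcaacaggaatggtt
Sox6: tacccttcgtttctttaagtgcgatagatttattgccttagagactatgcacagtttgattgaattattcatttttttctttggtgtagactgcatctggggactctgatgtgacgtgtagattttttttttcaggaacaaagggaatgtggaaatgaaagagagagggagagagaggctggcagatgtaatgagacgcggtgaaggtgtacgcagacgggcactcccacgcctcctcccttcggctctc
The Sox5 window held 1 copy of the core, and the Sox6 window shown held 0, while 3 of the 6 Sox6 entries held it. Among all 32851 promoter entries of the same length, 27.7% held this core on either strand, against 38.5% of the 13 entries of the cartilage genes. Since 3 of the 5 cartilage entries with the core belong to Sox6, these entries are not independent and the shares show no enrichment. The inner core of the glucocorticoid receptor motif, ACANNNTGT, was found in 1 of the 13 entries, another Sox6 start, and in 5.84% of all entries. These matches describe the letters only and are not binding sites.

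Among the other 16 Sox genes listed (all but Sry), 8 were in the table, 3 passed the filter and 0 were called by limma. Their median log2 fold change was -0.17, where that of all genes tested was 0.00071. Without the fold limit, 2 of the 3 had an adjusted p-value under 0.05, where 72.5% of all genes tested did, and edgeR and DESeq2 also called 0 of the 3. Sox4, a SoxC factor of progenitor cells, had 6626 ± 250 (SD, n = 3) and 7125 ± 447 (SD, n = 3) normalized counts, with a log2 change of 0.10 (limma adjusted p = 0.0319) that became -0.01 at the same total and -0.11 after quantile normalization. Sox11, its close relative, fell slightly, from 2413 ± 159 to 2040.0 ± 84.9 (SD, n = 3 each), a log2 change of -0.24 (limma adjusted p = 0.000119). Sox13, the remaining SoxD gene, had 168 ± 7.38 and 150.2 ± 21.9 normalized counts (SD, n = 3 each), a log2 change of -0.17 (limma adjusted p = 0.236, interval -0.43 to 0.09). The SoxE genes Sox8 and Sox10, the relatives of Sox9, stayed under the filter.

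Col2a1, which encodes the single chain of type II collagen and is a direct Sox9 target in chondrocytes, rose with dexamethasone. The controls gave 1494, 1516 and 1540.5 normalized counts, and the dexamethasone libraries 6180.3, 5426 and 5453. The 2 groups lay far apart. The mean went from 1517 ± 23.4 (SD, n = 3) to 5687 ± 428 (SD, n = 3), 3.75-fold, with a log2 change of 1.90 (standard error 0.0465, limma adjusted p = 1.15e-21).

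Col10a1, which marks hypertrophic chondrocytes, was nearly silent. Its reads numbered 7, 15 and 12 without and 5, 3 and 4 with dexamethasone, so that every dexamethasone library was lower. The 34 control and 12 dexamethasone reads gave a dexamethasone to control ratio of 0.406, with a 95% exact interval of 0.191 to 0.803 that covers counting error only. Across libraries the exact two-sided permutation test gave p = 0.1, the smallest it allows with 3 against 3 libraries. In a fit without the filter its log2 fold change was -1.09 (limma adjusted p = 0.071).

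Hapln1, the link protein of aggrecan, did not follow type II collagen, while Acan itself had too few reads to tell. For Acan the controls held 2, 4 and 0 reads and the dexamethasone libraries 1, 6 and 1, where a count of 0 allows up to 3 reads. These libraries held 72596611 to 89910728 reads, and no difference in Acan was detectable at this depth, with a ratio of 1.53 and a 95% exact interval of 0.466 to 5.36. Hapln1, which locks aggrecan and other lecticans onto hyaluronan, had 413, 397 and 407 normalized counts in the control libraries and 141, 178 and 138 in the dexamethasone libraries. The groups were separate, and the mean fell from 406 ± 7.99 (SD, n = 3) to 152 ± 21.9 (SD, n = 3), 2.66-fold, with a log2 change of -1.42 (standard error 0.105, limma adjusted p = 9.08e-12).

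The promoters of Acan and Hapln1 are printed because their proteins form 1 complex in cartilage while only Hapln1 was measured above the filter. The Acan window is chr7:79052976-79053225 and the Hapln1 window chr13:89540386-89540635, both on the plus strand of GRCm38.p6, with capitals as above.
Acan: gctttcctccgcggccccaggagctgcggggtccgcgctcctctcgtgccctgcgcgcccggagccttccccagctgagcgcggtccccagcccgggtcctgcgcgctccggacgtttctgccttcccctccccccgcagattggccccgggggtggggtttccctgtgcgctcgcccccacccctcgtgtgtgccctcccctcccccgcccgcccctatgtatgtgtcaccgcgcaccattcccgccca
Hapln1: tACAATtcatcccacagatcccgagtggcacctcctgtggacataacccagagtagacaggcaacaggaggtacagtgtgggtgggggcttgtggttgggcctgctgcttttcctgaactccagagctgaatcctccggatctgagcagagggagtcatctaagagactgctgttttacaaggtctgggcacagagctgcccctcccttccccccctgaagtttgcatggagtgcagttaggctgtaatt
In the Acan window 74.4% of the bases were G or C, with 3 copies of the GC box GGGCGG, a motif present in 32.7% of all entries, and 0 copies of the Sox core. In the Hapln1 window 54.4% were G or C, with 1 copy of the Sox core and 0 GC boxes.

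Matn3, a matrilin that links collagen fibrils to other matrix proteins, was seen with 8, 12 and 12 reads without and 0, 2 and 3 reads with dexamethasone. All dexamethasone libraries were lower, and the pooled reads, 32 and 5, gave a ratio of 0.18 with a 95% exact interval of 0.0547 to 0.465. The exact permutation test gave p = 0.1, and the fit without the filter gave a log2 change of -2.14 (limma adjusted p = 0.00403). Cnmd, which encodes the angiogenesis inhibitor chondromodulin, had 4, 8 and 2 reads against 0, 1 and 3, with overlapping groups, a ratio of 0.329 (95% exact interval 0.0787 to 1.05) and an exact permutation p = 0.2. Among the 12174 genes under the filter, 20.1% had groups that did not overlap, as did Col10a1 and Matn3.

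Chad, which encodes chondroadherin, a leucine-rich protein that binds collagen and cells, gave 45.9, 27.4 and 21.1 normalized counts in the controls. With dexamethasone it gave 29.6, 37.1 and 38.4. The groups overlapped, with control replicate 1 the highest library. The log2 change was 0.21 with a 95% interval of -0.36 to 0.78 (limma adjusted p = 0.499), and without control replicate 3 it was -0.03. The interval holds no change that reaches the limit of 1.

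**Figure D2:**
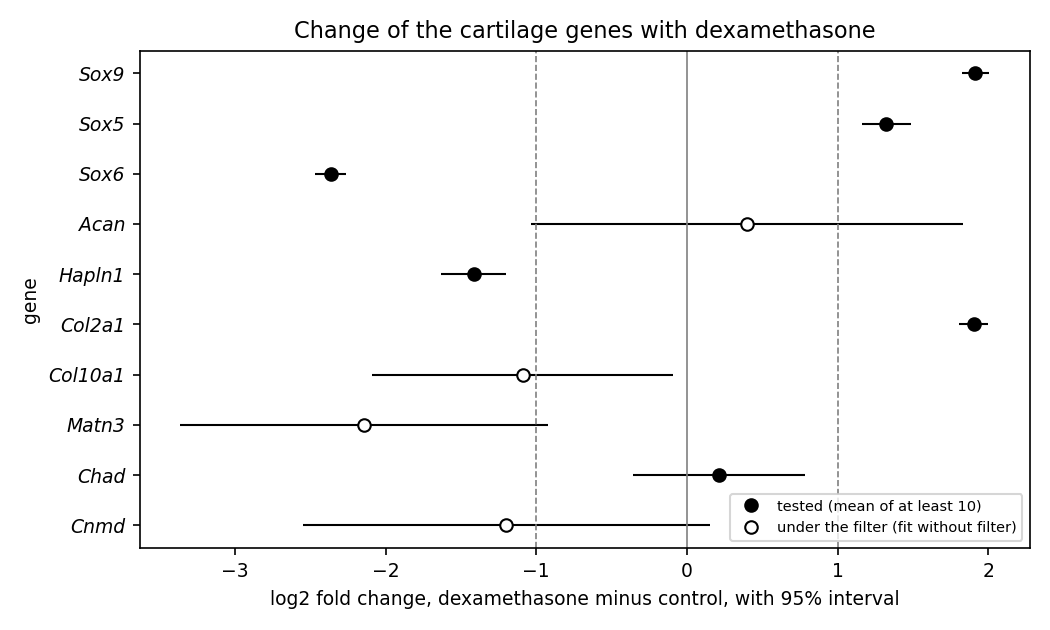
Log2 fold change (dexamethasone minus control) of the 10 cartilage genes with 95% intervals, filled for the 6 tested genes and open for the 4 under the filter, whose values come from the fit without it. Dashed lines mark the fold limit of 1 in each direction, beyond which the intervals of Sox9, Sox5 and Col2a1 lie on the right and those of Sox6 and Hapln1 on the left.

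Levels per kilobase of exon allow different genes to be compared only roughly, since the length joins the exons of all GENCODE M21 transcripts of a gene. On this scale Sox9 was the most abundant of the 10 in both groups, at 1115 normalized counts per kb in the control and 4209 in the dexamethasone libraries. In the control libraries it was followed by Sox6 at 467, Col2a1 at 164 and Hapln1 at 68.7, with no overlap between neighbours. Chad at 18.7 and Sox5 at 18.3 per kb overlapped, and so did Col10a1, Matn3 and Cnmd, at 3.37, 3.28 and 2.40. In the dexamethasone libraries Col2a1 stood second at 615 per kb, ahead of Sox6 at 90.8, Sox5 at 46.0, Hapln1 at 25.8 and Chad at 20.8, again without overlap. Acan was last in both groups, at 0.257 and 0.386 per kb, and in the dexamethasone libraries it overlapped Matn3.

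Some of the closest relatives of the matrix genes were far more abundant than the cartilage forms, and others were not. Of 13 such paralogs 12 were in the table and 8 were tested. Of these 1 was called higher and 3 lower, where 11.7% and 10.6% of all genes tested were, and the median log2 change was -0.34. Vcan, the lectican of loose connective tissue, had 4008, 4097 and 4120 normalized counts in the control libraries and 46047, 44260 and 44780 in the dexamethasone libraries. Every dexamethasone library was far above the controls, at a log2 change of 3.47 (standard error 0.0342, limma adjusted p = 3.68e-29), and its level went from 282 to 3114 per kb. Col8a1 and Col8a2, short-chain collagens like Col10a1, fell with log2 changes of -1.52 and -2.75 (limma adjusted p = 2.49e-21 and 2.67e-25). Matn4 also fell, from 1246 ± 10.8 to 180.4 ± 9.35 normalized counts (SD, n = 3 each), a log2 change of -2.78, whereas the broadly expressed Matn2 had a log2 change of 0.22 (limma adjusted p = 2.88e-05). Hapln4, a link protein known from the brain, stood at 707 and 657 per kb and had a log2 change of -0.11 (limma adjusted p = 0.03). Matn2, Matn4 and Hapln4 were singled out after their values were seen. Rbpjl, on the opposite strand, overlaps 2.88% of the exon bases of Matn4 in GENCODE M21. Among the remaining paralogs, Hapln3 (7.27 per kb in control and 4.68 in dexamethasone libraries) lay below Hapln1. Chadl (6.96 and 6.42 per kb) lay below Chad, and Bcan, Ncan, Hapln2 and Matn1 stayed under the filter.

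**Figure D3:**
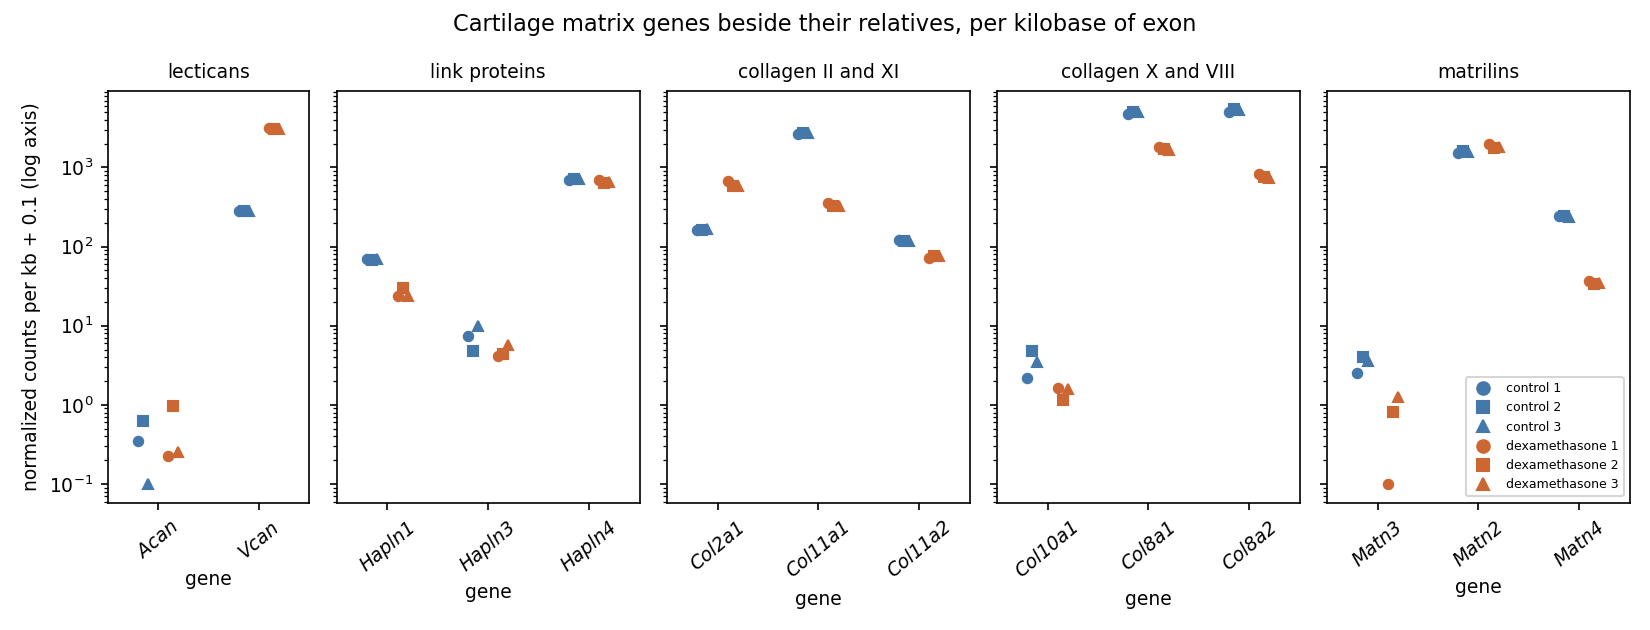
Normalized counts per kilobase of exon plus 0.1 (log axis) of Acan, Hapln1, Col2a1, Col10a1 and Matn3 beside related genes, in the 3 control (blue) and 3 dexamethasone (orange) libraries. Acan lay under 1 per kb in every library while Vcan went from 282 to 3114, and Col2a1 rose while Col11a1 and Col11a2 fell.

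The other genes of cartilage matrix mostly went down or were hardly detected. Of 20 such genes 17 were in the table and 10 were tested. Of these 1 was called higher and 4 lower, where 11.7% and 10.6% of all genes tested were, and the median log2 change was -0.62. Col11a1, a chain of type XI collagen, which nucleates type II collagen fibrils, had 33493, 35001 and 34929 normalized counts in the control libraries, and 4558, 4176 and 4189 in the dexamethasone libraries. That was a log2 change of -3.0 (standard error 0.0382, limma adjusted p = 4.34e-27), opposite in sign to that of Col2a1. Its partner chain Col11a2 fell less, with a log2 change of -0.67 (limma adjusted p = 7.08e-10), and Col27a1, another fibrillar collagen, had one of -1.27 (limma adjusted p = 2.41e-19). Comp, the pentameric cartilage oligomeric matrix protein, fell from 118 ± 9.44 to 49.7 ± 3.36 (SD, n = 3 each), a log2 change of -1.23 (limma adjusted p = 3.17e-07). The gene called higher was Prg4, the joint lubricant lubricin, at 41.3, 34.2 and 31.6 against 80.1, 94.8 and 55.8 normalized counts. Its log2 change of 1.06 (limma adjusted p = 0.000123) was under the limit of 1 without control replicate 3 (0.98), without dexamethasone replicate 2 (0.89) and at the same total (0.95). Col11a2, Comp and Prg4 were singled out after their values were seen.

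Detection of cartilage matrix genes was uneven. Those above the filter included Col2a1, Hapln1, Col11a2 (812 and 508 normalized counts in control and dexamethasone libraries), Comp and Col9a3 (93.6 and 62.8). In contrast Col9a1, Matn1 and Ucma had 3 reads or fewer in every library, and Acan at most 6, while Epyc, Cytl1 and Scrg1 were not in the table used here. All 8 osteoblast markers listed were called lower (7 after quantile normalization), where 10.6% of all genes tested were. Their summed level was 2248050 to 2384870 normalized counts in the control libraries and 861918 to 960600.0 in the dexamethasone libraries. This list does not include Spp1, which was called higher, with means of 33595 in the control and 1279670 in the dexamethasone libraries. Bglap, which encodes the Osteocalcin used for the sort, had 98.2 to 122 normalized counts in the control and 9.54 to 15.1 in the dexamethasone libraries. The 6 proliferation markers listed were all called higher, where 11.7% of all genes tested were. The summed level of these markers was 29897 to 32041 in the control and 187433 to 200625 in the dexamethasone libraries. Their part in the changes of the cartilage genes was not tested. Of 8 blood markers, 2 were called higher and 2 lower (1 lower without the mean-variance trend, and 0 with at least 10 in every library). Their sum was 168 to 184 against 821 to 880.2. Of 8 endothelial markers 0 were called by limma, edgeR or DESeq2. At a limma adjusted p-value under 0.05 without the fold limit, 3 were higher and 0 lower, where 37.2% and 35.2% of all genes tested were. The 3 were Vwf, Pecam1 and Kdr, with log2 changes of 0.76, 0.74 and 0.25. The endothelial sum was 2160.0 to 2280 against 3257 to 3868 and rose mostly through Vwf (means of 1825 in control and 3097 in dexamethasone libraries). Without dexamethasone replicate 2 limma called 1 endothelial marker lower. Of 6 tendon markers 2 were called lower (sum 167398 to 179186 against 71990.1 to 78267), and Tnmd, Thbs4 and Kera were not in the table used here. The tendon sum was mostly Fmod (means of 172898 in control and 73005 in dexamethasone libraries). Mkx went the other way, with a log2 change of 0.44 (limma adjusted p = 6.55e-07). Among 6 muscle markers 1 was called lower (sum 63.3 to 79.3 against 55.6 to 73.5), among 6 adipocyte markers 1 was called higher (274 to 356 against 1918 to 2064), and among 6 osteocyte markers 1 was called higher (8220.3 to 8760 against 18449 to 19774). Without control replicate 1 or dexamethasone replicate 2, 1 muscle marker was called higher, and without control replicate 2 or dexamethasone replicate 2, 2 adipocyte markers were. With at least 10 in every library 0 muscle and 0 adipocyte markers were called, since that filter removes Acta1 and Fabp4, the called genes of these lists. The adipocyte sum rose mostly through Fabp4 (means of 2.16 in control and 1448 in dexamethasone libraries). The blood sum rose mostly through Cd53 (15.7 and 283) and Itgb2 (54.6 and 503). The osteocyte marker called higher was Dmp1 (38.5 and 5639).

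Genes that direct chondrocyte differentiation were lower or changed little. Of 24 listed, 22 were in the table and 16 were tested. Of these 0 were called higher and 6 lower, where 11.7% and 10.6% of all genes tested were, and the median log2 change was -0.40. At an adjusted p-value under 0.05 without the fold limit, 4 were higher and 9 lower, where 37.2% and 35.2% of all genes tested were, and edgeR and DESeq2 also called 0 higher. Runx2, the factor for hypertrophy and bone formation, fell with a log2 change of -1.75 (limma adjusted p = 2.42e-22). Zbtb20, a repressor active in hypertrophic chondrocytes, had a log2 change of -0.70 (limma adjusted p = 4.27e-11), and Arid5b, a chromatin partner of Sox9, one of 0.24 (limma adjusted p = 4.85e-06). The remaining genes called lower were Pth1r, Mef2c, Fgfr3, Dlx5 and Trps1, with log2 changes of -2.20, -1.52, -1.5, -1.45 and -1.15, named after their values were seen.

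The enzymes that build chondroitin sulfate, the chain carried by aggrecan and by versican (Vcan), did not move as 1 group. Of 24 genes 23 were in the table and 21 were tested. Of these 3 were called higher and 1 lower, where 11.7% and 10.6% of all genes tested were, and the median log2 change was 0.11. Those called higher were chosen for naming after their values were seen. Csgalnact1, which starts the chain, had 45.0, 34.2 and 25.5 normalized counts in the control libraries and 305, 330.3 and 356 in the dexamethasone libraries, a log2 change of 3.24 (limma adjusted p = 8.54e-15). The sulfotransferases Chst3, which acts at the 6-position, and Chst11, which acts at the 4-position, had log2 changes of 2.81 and 1.76 (limma adjusted p = 7.23e-19 and 7.04e-22). Slc26a2, the sulfate transporter that feeds this sulfation, fell from 19250 ± 510.1 to 4930.2 ± 145 (SD, n = 3 each), a log2 change of -1.96 (limma adjusted p = 3.24e-24). The most abundant genes of the list changed by less than the limit, with log2 changes of -0.33 for Bpnt2 (Impad1 in the annotation), 0.53 for Chpf and 0.08 for Fam20b.

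Genes of aggrecan turnover were mostly lower. Of 10 listed, 9 were in the table and 7 were tested. Of these 1 was called higher and 4 lower, where 11.7% and 10.6% of all genes tested were, and the median log2 change was -1.21. Adamts5, the main aggrecanase of mouse cartilage, had 19069, 18773 and 20076 normalized counts in the control libraries and 3060.1, 2838 and 2919 in the dexamethasone libraries, a log2 change of -2.72 (limma adjusted p = 2.44e-26). Adamts4 and Adamts9 had log2 changes of -1.21 and -1.91, and Timp3, the inhibitor of these proteases, one of -1.37 (limma adjusted p = 4.91e-20). Adamts1 and Htra1 changed by less than the limit, with -0.09 and -0.42. The collagenase Mmp13 rose from 158 ± 23.6 to 430.4 ± 26.1 (SD, n = 3 each), a log2 change of 1.45 (limma adjusted p = 7.68e-12). Adamts4, Adamts5, Adamts9 and Mmp13 were singled out after their values were seen.

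Besides Col10a1, 8 genes of hypertrophic chondrocytes were listed, most of them also made by osteoblasts, and 7 were tested. Of these 2 were called higher and 4 lower, where 11.7% and 10.6% of all genes tested were, with a median log2 change of -1.27. The highest level was that of Spp1, encoding Osteopontin, with a log2 change of 5.25 (limma adjusted p = 1.43e-29), while Pth1r had one of -2.20 and Vegfa one of 0.78 (limma adjusted p = 3.74e-16). Panx3, a channel of prehypertrophic chondrocytes and osteoblasts, fell from 3134 ± 64.4 to 268 ± 15.9 (SD, n = 3 each) and was singled out after its values were seen.

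**Figure D4:**
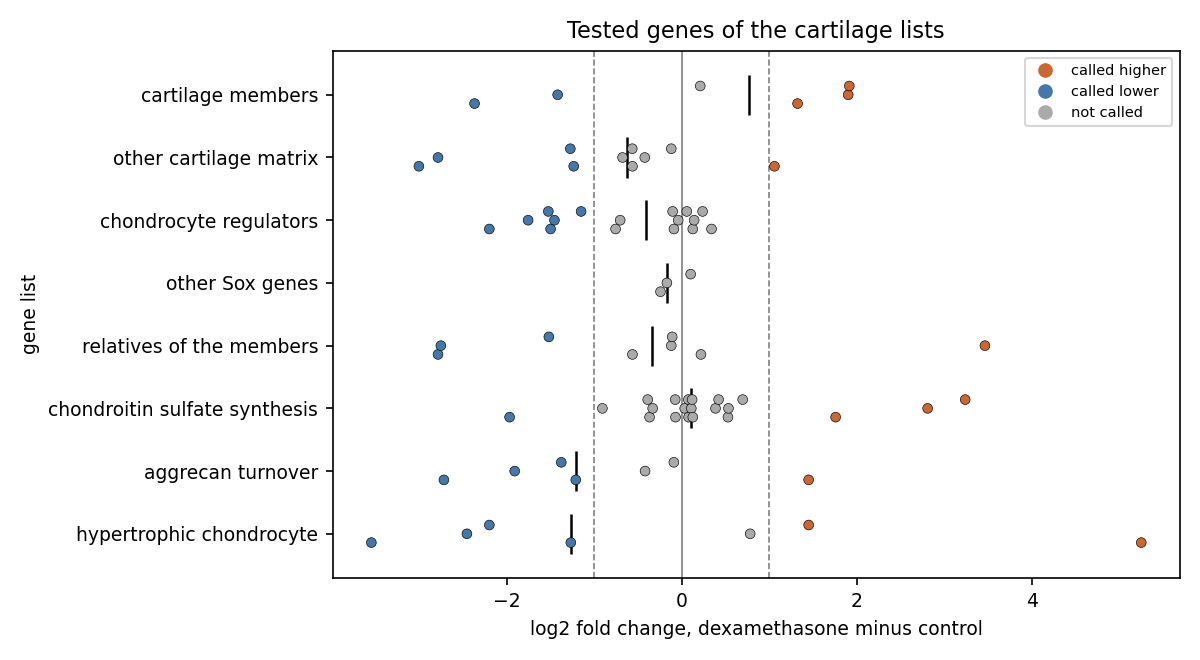
Log2 fold change (dexamethasone minus control) of every tested gene in the 8 cartilage lists, 1 point per gene, orange when called higher, blue when called lower and grey otherwise, with a black bar at the list's median and dashed lines at the fold limit. The cartilage genes split into 3 higher and 2 lower, and no chondrocyte regulator lay beyond the limit on the right.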

How the data were processed

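RNA was sequenced in 3 control and 3 dexamethasone libraries. Libraries were made with a stranded kit. Alignment and counting by the authors used STAR 2.7.10a, and the deposited values are a signal, these counts divided by 1 DESeq2 1.36.0 size factor per library (normalized counts). The submitters' processing notes name GRCm39, while neither the gene annotation nor how strand was handled in counting is given in the sources used here. Every value was a whole multiple of that of 1 read (tolerance 0.01, 100% of values), which gave 72596611 to 89910728 reads per library, and 0 columns were left out. Symbols (28087 of 29616 genes), exon lengths and overlaps came from GENCODE M21, which is on another build, so that no gene coordinates are given. Limma 3.58.1 (mean-variance trend, R 4.3.3) was applied to log2(normalized counts + 1), which understates the change of low genes, for the 17442 genes averaging 10 or more. The settings varied were the pseudocount, the filter, the scaling, the trend in limma, a replicate block, the omission of each library, and the tool, with edgeR 4.0.16 or DESeq2 1.42.0 run on whole reads. Methods were tested on simulated data. The exact intervals of read ratios and the limit of 3 reads cover counting error only. Intervals of log2 changes are those of limma and rest on the variance between libraries. The 10 genes, the lists and the tests were chosen with earlier results of these data known. Of each cartilage list, the 3 tested genes with the highest mean were named, and marker lists are given by counts and sums. Replicate libraries differed by more than sampling noise (chi-square per degree of freedom 3.27 to 26.1).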

Additional observations from a re-analysis of the deposited data

How the results depend on the processing

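Over 18 alternatives the 5 calls among the cartilage genes (3 higher, 2 lower) were kept. Without the filter Matn3 was called lower as well, which made 3 higher and 3 lower. The log2 fold changes of the 5 genes were 1.72 to 1.95 for Sox9, 1.21 to 1.362 for Sox5 and 1.74 to 1.94 for Col2a1. They were -2.53 to -2.33 for Sox6 and -1.53 to -1.35 for Hapln1. Chad was not called under any of the 17 that gave it a value (-0.03 to 0.51, the lower value being -0.0285 without control replicate 3, limma adjusted p = 0.937, a change of sign), and with a mean of at least 100 it could not be fitted. Equal replicate numbers did not mark paired libraries (correlations of same-numbered deviations -0.0999, -0.105 and -0.0199), and with the replicate block 5 cartilage genes were called, 3 higher and 2 lower. Scaling to the same total moved the median of all genes to -0.11, the level against which its values are to be read, and the share of higher among all called genes was then 45.1% and not 52.3%, whereas it was 62.2% among the genes with a mean of at least 100. Under 2 scalings small values changed sign, Sox4 to -0.0105 (same total) and -0.108 (quantile), and Fam20b to -0.0339 and -0.102, while Chst12 (-0.90) passed the limit at -1.02 and -1.06. The cause was not tested. All genes called numbered 5326 without a filter, 2170 at a mean of at least 100 and 2795 with at least 10 in every library, against 3894, by construction. Depth limits Acan, Cnmd, Col10a1 and Matn3, with at most 15 reads in any library.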

Other observations

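Ratios between genes within a library do not depend on the scaling between libraries, and the pairs given here were chosen after their values were seen. For each ratio below except that of Col2a1 to Sox9, the groups did not overlap and the exact two-sided permutation test gave p = 0.1, the smallest it allows with 3 against 3 libraries.

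Per kilobase of exon, the ratio of Sox9 to Sox6 was 2.31, 2.40 and 2.45 without and 45.5, 47.5 and 46.1 with dexamethasone (replicates 1 to 3), a 19.5-fold difference. The ratio of Sox5 to Sox6 went from 0.0392 ± 0.00308 to 0.507 ± 0.0207 (SD, n = 3 each), 12.9-fold, so that Sox6 remained the more abundant of the SoxD pair in all 6 libraries.

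The ratio of Col2a1 to Col11a1 was 0.0615, 0.0597 and 0.0608 in the control libraries and 1.87, 1.79 and 1.79 in the dexamethasone libraries, a log2 difference of 4.91. Col11a1 was thus above Col2a1 in each control library and below it in each dexamethasone library. In contrast, the ratio of Col2a1 to Sox9 was 0.155, 0.142 and 0.145 in the control libraries and 0.148, 0.144 and 0.147 in the dexamethasone libraries, with overlapping groups (exact permutation p = 0.9). Its log2 change of -0.01 ranged from -0.0366 to 0.0222 over the 6 omissions of 1 library.

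The ratio of Vcan to Hapln1 was 3.96, 4.21 and 4.13 in the control libraries and 133, 102 and 132 in the dexamethasone libraries, a 29.8-fold difference.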
